A study of Homo sapiens with 12 samples.

Results

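The 31 genes described here are established transcriptional targets of p53, chosen by name from the 58735 genes of the expression table, and each was found under 1 identifier. RNA had been sequenced from HaCaT cells, an immortalised line of human keratinocytes, in 4 groups of 3 libraries each. Cells of the PHGDH-siRNA+Mix group had received siRNA against PHGDH and a treatment labelled Mix for 24 h, and cells of the PHGDH-siRNA group the same siRNA with no Mix. Control-siRNA+Mix and Control-siRNA cells had received a control siRNA with and without Mix. PHGDH encodes phosphoglycerate dehydrogenase, which opens the serine synthesis pathway. The labels say neither what Mix contains nor whether a group's libraries are separate cultures. The p-values below therefore reflect no more than the spread among these libraries, which may be technical. All groups are 1 line, grown in serum-containing medium.

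The protein p53 is a transcription factor that is stabilised by DNA damage and other stress. It binds sites made of a pair of similar half-sites and raises genes that stop the cell cycle, repair DNA, alter metabolism or kill the cell, and some of its targets, MDM2 above all, act back on p53 and limit it. The related factors p63 and p73 recognise similar sites, and p63 is the family member that keeps the basal layer of the epidermis. Here p53 target is the name of a gene group and not a statement on p53 activity in these cells.

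Stretches from the start regions of 6 of the genes are shown because they hold a match to the half-site of the p53 consensus. RefSeq start regions of build GRCh38.p14, from 250 bases before to 50 after a gene's start, were found for 25 of the 31 genes. The search was for the 10-base p53 half-site consensus, which reads the same on both strands. Capitals mark the match, and each sequence is written 5′ to 3′ on the gene's own strand.
AEN, chr15:88621291-88621330, plus strand: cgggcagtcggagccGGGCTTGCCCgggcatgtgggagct
DDB2, chr11:47214975-47215003, plus strand: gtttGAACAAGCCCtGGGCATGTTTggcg
FAS, chr10:88991294-88991333, plus strand: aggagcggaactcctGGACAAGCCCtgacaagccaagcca
FDXR, chr17:74872995-74873020, minus strand: ggcccgggcaggagcGGGCTTGCCCt
PLK2, chr5:58460194-58460233, minus strand: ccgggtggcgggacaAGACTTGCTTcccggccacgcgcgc
SESN1, chr6:109009013-109009052, minus strand: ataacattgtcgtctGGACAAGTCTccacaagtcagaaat

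A half-site was present in 6 of the 25 genes (24%), against 2202 of 27305 genes of the whole promoter table (8.06%). A gene counted if any of its start regions matched, and the 25 genes had 38 regions, against 35116 for the 27305. The members were also chosen as established p53 targets, so these shares are a description and not a test. DDB2 alone of the 25 had a pair of half-sites at most 13 bases apart, an arrangement found in 10 of the 27305 genes (0.0366%). Its pair began 5 bases past the RefSeq start, whereas the match lay 11 bases before the start in FDXR and 132 before it in PLK2. A match is a description of these letters and not a site of binding, and no match says only that the letters are not in this window.

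Reads recovered from the FPKM values (fragments per kilobase of gene, scaled per library) came to 16403845 to 20901128 per library. The library sizes implied by that scaling were 0.93 to 1.10 times these totals, so the values were not scaled to total reads. Median-ratio factors were 1.013 in every library, so the deposited values were already level by that measure. Mitochondrial genes held 7.085% of the reads in Control-siRNA replicate 1 and 3.807% to 5.555% in the other libraries. The part of that share in the results was not tested. All 10 keratinocyte markers reached 1 FPKM, with sums of 2220 to 4730 in PHGDH-siRNA+Mix, 1540 to 5160 in PHGDH-siRNA, 2520 to 2610 in Control-siRNA+Mix and 1520 to 2030 in Control-siRNA. In both PHGDH-siRNA groups the highest sum was that of replicate 2, though not every marker was highest there. The part of these marker differences in the results below was not tested. No marker of melanocytes or endothelial cells reached 1 FPKM, and the summed fibroblast markers stayed at or below 2.11 FPKM. Of leukocyte markers PTPRC was at 0 in all libraries, whereas CD14 stood at 1.5, 0.201 and 1.95 FPKM in PHGDH-siRNA+Mix and 2.63, 0.0553 and 1.68 in PHGDH-siRNA, against 1.98 to 2.83 in Control-siRNA+Mix and 1.29 to 1.76 in Control-siRNA. The part of CD14 in the results was not tested. PHGDH itself stood at 19.1, 13.3 and 11.5 FPKM in PHGDH-siRNA+Mix and 23.7, 20.1 and 16.9 in PHGDH-siRNA, against 31.9, 31.2 and 26.6 in Control-siRNA+Mix and 36.5, 56.2 and 45.8 in Control-siRNA. Every library with PHGDH siRNA was thus below every library with control siRNA, although the differences did not pass the test over all genes (log2 -1.01, adjusted p = 0.2 with Mix; -1.14, adjusted p = 0.128 without; limma). Replicate 2 of both PHGDH-siRNA groups stood apart from replicates 1 and 3 in 22.2% of all genes tested, by over 0.5 on the log2 scale in the same direction. Counts are therefore also given without those 2 libraries.

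The 31 genes covered a wide range of levels. SFN, which encodes 14-3-3 sigma, an abundant keratinocyte protein that holds cell division kinases in the cytoplasm, was the highest with a mean of 1412 FPKM over the 12 libraries. CDKN1A, the gene of the cyclin-dependent kinase inhibitor p21, followed with 138 FPKM, ahead of PHLDA3, an inhibitor of AKT signalling, with 55.7 and the pore-forming death protein BAX with 44.1. MDM2, the ubiquitin ligase that marks p53 for degradation, averaged 1.92 FPKM. Expression was too low for the test, under a mean of 0.5 FPKM in every group, for CYFIP2 of the WAVE actin complex, the receptor gene EDA2R, SPATA18 of mitochondrial quality control and the glycolysis regulator TIGAR. EDA2R was the lowest with 0 to 6 reads per library. The other 27 genes were tested. Parts of some genes' exons also belong to a neighbour, 45.6% in TIGAR, 30.4% in XPC, 19.1% in PHLDA3 and 16.2% in FBXO22, and the sources used here do not give whether counting used the strand.

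**Figure D1:**
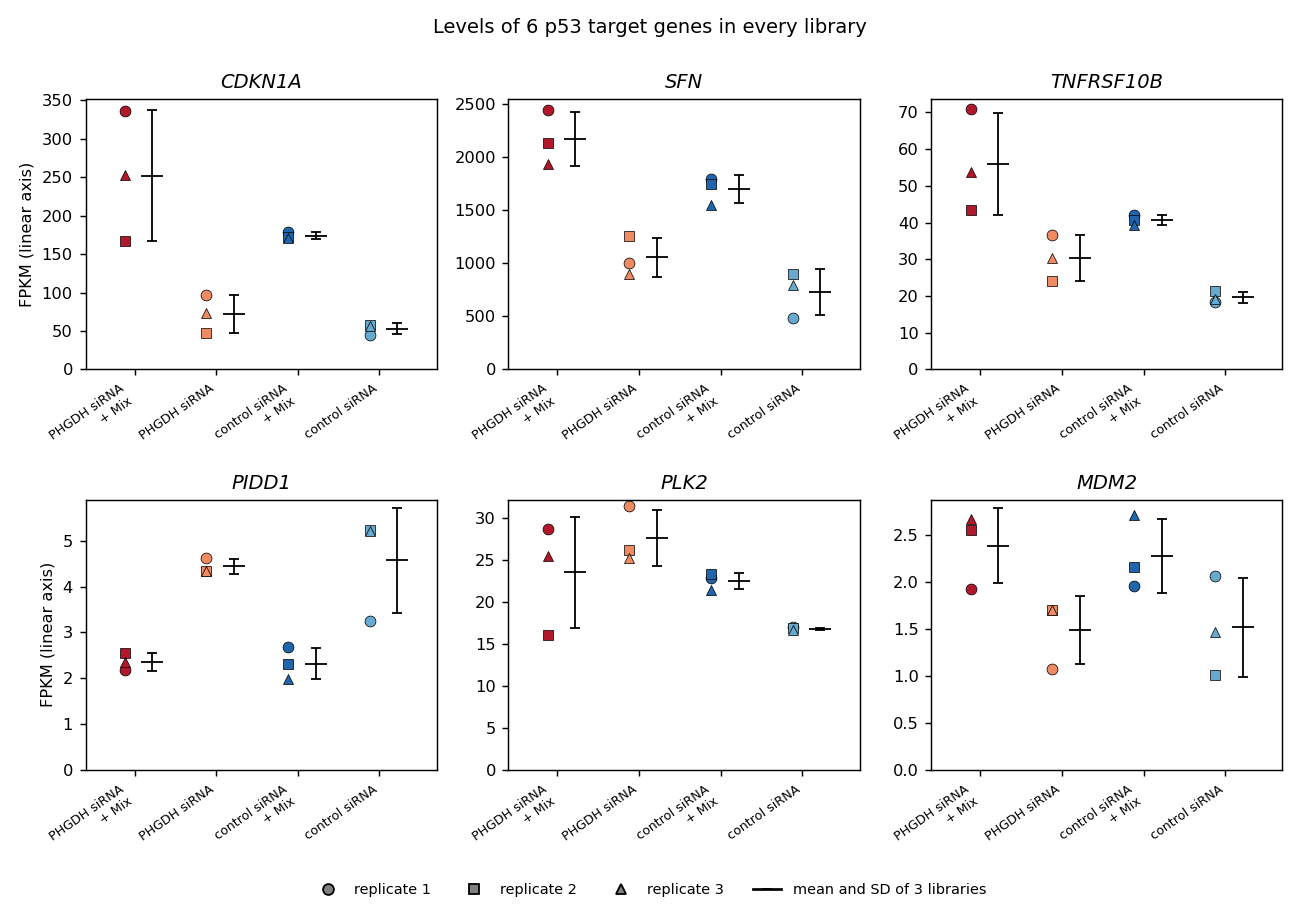
FPKM on linear axes of 6 p53 target genes in each of the 12 libraries, as one symbol per replicate with the mean and SD of 3 libraries beside them. CDKN1A, SFN and TNFRSF10B are higher and PIDD1 is lower in every Mix library than in every library without Mix of the same siRNA, while PLK2 without Mix is higher under PHGDH siRNA.

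With Mix, the same 4 of 27 genes passed the test under PHGDH siRNA and under control siRNA: CDKN1A, SFN and TNFRSF10B rose and PIDD1 fell. That is 14.8% of the tested members, against 8.86% of all 14577 genes tested under PHGDH siRNA (5.22% higher, 3.64% lower) and 9.54% under control siRNA (5.62% higher, 3.92% lower). The test was limma on log2(FPKM + 1) with Benjamini-Hochberg adjustment, and folds given as such are ratios of mean FPKM. In bulk RNA, a change in how many cells express a gene and a change in its RNA per cell cannot be told apart.

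CDKN1A showed the largest log2 difference of the 27 under either siRNA. It stood at 336, 167 and 253 FPKM in PHGDH-siRNA+Mix, against 96.2, 46.9 and 73.7 in PHGDH-siRNA. Under control siRNA it stood at 179, 172 and 171 FPKM with Mix, against 44.7, 58.3 and 56.1 without. The lowest Mix library was above the highest library without Mix in both arms, and replicate 2 was the lowest of 3 in both PHGDH-siRNA groups. The rise was 3.49-fold under PHGDH siRNA (log2 difference 1.79 ± 0.28 SE, adjusted p = 0.00265) and 3.28-fold under control siRNA (1.70 ± 0.28, adjusted p = 0.00303).

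SFN started from a far higher level. It reached 2445, 2128 and 1936 FPKM in PHGDH-siRNA+Mix libraries, against 998, 1260 and 903 in PHGDH-siRNA, and 1793, 1747 and 1545 FPKM in Control-siRNA+Mix, against 483, 903 and 798 in Control-siRNA. Groups with and without Mix did not overlap. The rise was 2.06-fold under PHGDH siRNA (log2 1.05 ± 0.23 SE, adjusted p = 0.0169) and 2.33-fold under control siRNA (1.26 ± 0.23, adjusted p = 0.00559).

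Among the genes of cell death, TNFRSF10B, a cell-surface receptor for the death ligand TRAIL, rose. Its FPKM values were 70.9, 43.5 and 53.7 in PHGDH-siRNA+Mix, against 36.5, 24.0 and 30.4 in PHGDH-siRNA, a 1.85-fold rise (log2 0.86 ± 0.19 SE, adjusted p = 0.0165). They were 42.1, 40.6 and 39.3 in Control-siRNA+Mix, against 18.3, 21.4 and 19.1 in Control-siRNA, a 2.08-fold rise (1.02 ± 0.19, adjusted p = 0.0058). No library overlapped between the groups of either pair, and the 3 Control-siRNA+Mix libraries lay closer together than the 3 PHGDH-siRNA+Mix libraries.

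PIDD1 moved the other way. It encodes the scaffold of the PIDDosome, which activates caspase-2, and stood at 2.17, 2.56 and 2.36 FPKM in PHGDH-siRNA+Mix, against 4.63, 4.33 and 4.35 in PHGDH-siRNA. Under control siRNA its values were 2.68, 2.31 and 1.99 FPKM with Mix, against 3.25, 5.24 and 5.21 without. The groups did not overlap, and replicate 1 of Control-siRNA was the low one of its group. The Mix level was 0.532 times that without Mix under PHGDH siRNA (log2 -0.70 ± 0.15 SE, adjusted p = 0.0182) and 0.509 times under control siRNA (-0.73 ± 0.15, adjusted p = 0.0138).

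These 4 calls did not stand equally firmly. In the control arm CDKN1A, SFN and TNFRSF10B kept theirs with any single library left out, whereas PIDD1 lost its call without Control-siRNA replicate 2 or 3 or Control-siRNA+Mix replicate 2 or 3 (adjusted p between 0.0543 and 0.0719). In the PHGDH arm only CDKN1A kept its call with any single library left out. SFN lost its call without PHGDH-siRNA+Mix replicate 1 or PHGDH-siRNA replicate 1 or 3 (adjusted p between 0.0592 and 0.0756), and TNFRSF10B without replicate 3 of either PHGDH-siRNA group (0.0514 and 0.0555). PIDD1 lost its call without replicate 1 or 3 of either PHGDH-siRNA group (0.0592 to 0.0641). None of the 4 kept its call when the PHGDH-siRNA groups were fitted alone (adjusted p = 0.0671 for CDKN1A), where 1.81% of all genes passed. The control groups fitted alone gave 12 members (19.4% of all genes). Beside the 4 these were BBC3, BTG2, PLK2, PLK3 and TP53INP1, higher, and DDB2, POLH and PPM1D, lower. That fit uses the spread of the control groups alone, whereas the reported fit shares 1 estimate over all groups. Without replicate 2 of both PHGDH-siRNA groups, 8 of 27 members passed in the PHGDH arm (15.1% of all genes) and 11 of 27 in the control arm (20.8%). The 8 added BTG2, TP53INP1, DDB2 and POLH to the 4. The 11 added PLK2, PLK3, TP53INP1, DDB2, POLH, PPM1D and TRIAP1.

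**Figure D2:**
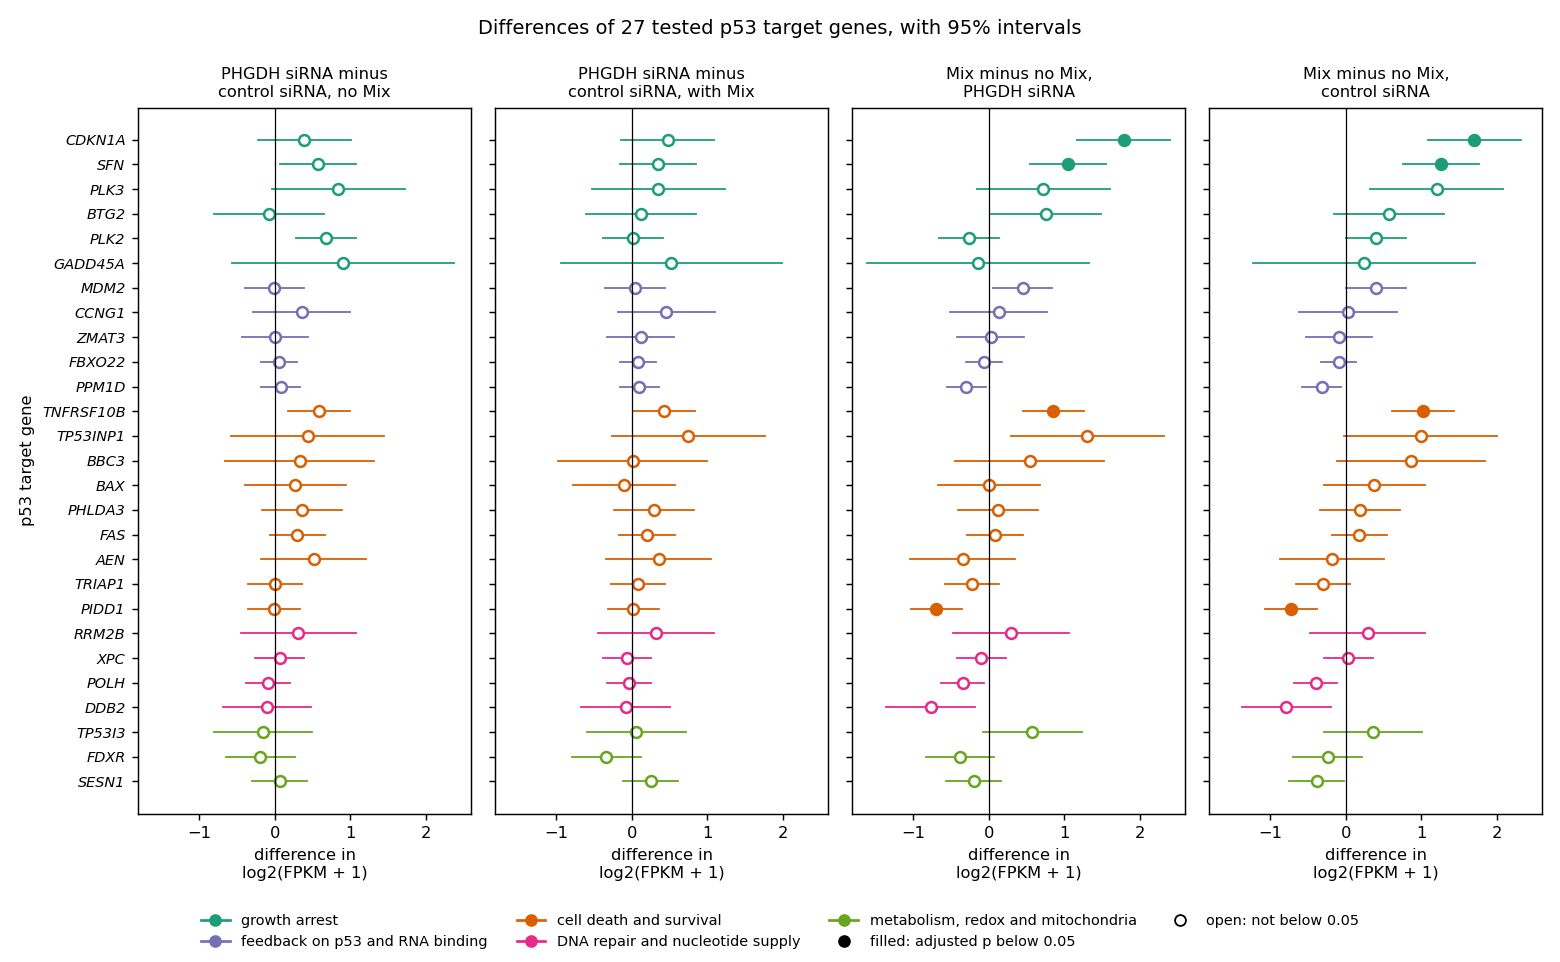
Differences in log2(FPKM + 1) of the 27 tested p53 target genes, grouped by role, with 95% intervals, in the comparisons of PHGDH siRNA with control siRNA (left pair) and of Mix with no Mix (right pair). Filled points passed the test, which are CDKN1A, SFN, TNFRSF10B and PIDD1 in both Mix comparisons and none in the siRNA comparisons.

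Growth arrest was the role with the highest median difference in both arms. Among its 6 genes the median was 0.74 on the log2 scale under PHGDH siRNA and 0.88 under control siRNA, beside 0.00 for all genes tested in each. Besides CDKN1A and SFN, the role holds the stress kinase gene PLK3, which stood at 17.4, 4.89 and 8.94 FPKM in PHGDH-siRNA+Mix and 8.72, 2.67 and 5.78 in PHGDH-siRNA. In the control arm PLK3 stood at 7.67, 6.82 and 6.61 FPKM with Mix, against 1.94, 3.1 and 2.49 without. The control groups did not overlap, with a log2 difference of 1.20 (adjusted p = 0.0928), while the PHGDH-siRNA groups did (0.72, adjusted p = 0.336). BTG2, an antiproliferative cofactor of mRNA deadenylation, differed by 0.76 under PHGDH siRNA and 0.57 under control siRNA (adjusted p = 0.21 and 0.371). GADD45A, a stress-induced growth arrest gene, had 95% intervals from -1.61 to 1.33 and from -1.23 to 1.71, too wide to place it.

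No gene of the feedback role passed with Mix in the reported fit. MDM2 stood at 1.93, 2.56 and 2.67 FPKM in PHGDH-siRNA+Mix, against 1.07, 1.7 and 1.7 in PHGDH-siRNA. It stood at 1.96, 2.16 and 2.72 FPKM in Control-siRNA+Mix, against 2.07, 1.01 and 1.47 in Control-siRNA. The first pair of groups did not overlap and the second did, through Control-siRNA replicate 1. Its log2 differences were 0.45 (adjusted p = 0.171) and 0.40 (adjusted p = 0.228). PPM1D, a phosphatase that removes activating phosphates from p53, had every Mix library below every library without Mix in both arms, at log2 -0.30 and -0.32 (adjusted p = 0.159 and 0.131). CCNG1, FBXO22 and ZMAT3 differed by at most 0.13 in either direction.

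Of the 9 tested genes of cell death and survival, 7 did not pass in the reported fit. TP53INP1, a nuclear cofactor of cell death and autophagy, had the largest difference among them, 1.30 under PHGDH siRNA and 0.99 under control siRNA (adjusted p = 0.115 and 0.237). It stood at 3.03, 8.78 and 3.9 FPKM in PHGDH-siRNA+Mix, against 0.521, 4.44 and 0.548 in PHGDH-siRNA, and 1.97, 2.41 and 3.03 FPKM in Control-siRNA+Mix, against 0.967, 0.463 and 0.802 in Control-siRNA. Replicate 2 was the highest of 3 in both PHGDH-siRNA groups, so those groups overlapped, and the control groups did not. BBC3, which encodes the BCL-2 antagonist PUMA, differed by 0.54 and 0.86 (adjusted p = 0.543 and 0.302). BAX stood at 59.0, 31.2 and 46.4 FPKM in PHGDH-siRNA+Mix, against 59.1, 30.3 and 47.6 in PHGDH-siRNA, so that same-numbered libraries nearly coincided. Under control siRNA it stood at 49.8, 51.0 and 42.1 FPKM with Mix, against 24.7, 48.8 and 39.7 without, and those groups overlapped (0.37, adjusted p = 0.555). The death receptor gene FAS, the nuclease gene AEN, PHLDA3 and the apoptosis inhibitor gene TRIAP1 lay between -0.35 and 0.18 in the 2 comparisons.

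No gene of DNA repair and nucleotide supply passed in the reported fit, and the lowest differences were those of DDB2 and POLH. With the control groups fitted alone both passed as lower with Mix (limma, adjusted p = 0.0169 and 0.0272). DDB2, which recognises ultraviolet damage for excision repair, stood at 4.45, 10.7 and 5.74 FPKM in PHGDH-siRNA+Mix, against 10.2, 15.6 and 10.5 in PHGDH-siRNA, and 6.89, 7.07 and 7.04 FPKM in Control-siRNA+Mix, against 9.67, 14.6 and 14.9 in Control-siRNA. All Mix libraries were below the others in the control arm, and replicate 2 made the PHGDH-siRNA groups overlap. The differences of -0.77 and -0.79 did not pass (adjusted p = 0.109 and 0.0989), nor did those of POLH, a translesion polymerase gene, at -0.35 and -0.40 (adjusted p = 0.142 and 0.0884). XPC, the excision repair sensor, and RRM2B, a ribonucleotide reductase subunit, differed by -0.10 and 0.29 under PHGDH siRNA and by 0.03 and 0.29 under control siRNA.

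None of the 3 tested genes of metabolism and redox passed with Mix in the reported fit. SESN1, a sestrin that restrains mTORC1, differed by -0.20 and -0.39, the ferredoxin reductase gene FDXR by -0.38 and -0.24, and the quinone oxidoreductase gene TP53I3 by 0.58 and 0.36 (adjusted p of 0.193 and above in all). Over all 27 genes the median difference with Mix was 0.02 under PHGDH siRNA and 0.18 under control siRNA. The groups did not overlap in 7 of 27 genes under PHGDH siRNA (25.9%), against 21.5% of all genes tested. They did not overlap in 14 of 27 under control siRNA (51.9%), against 37.8%.

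**Figure D3:**
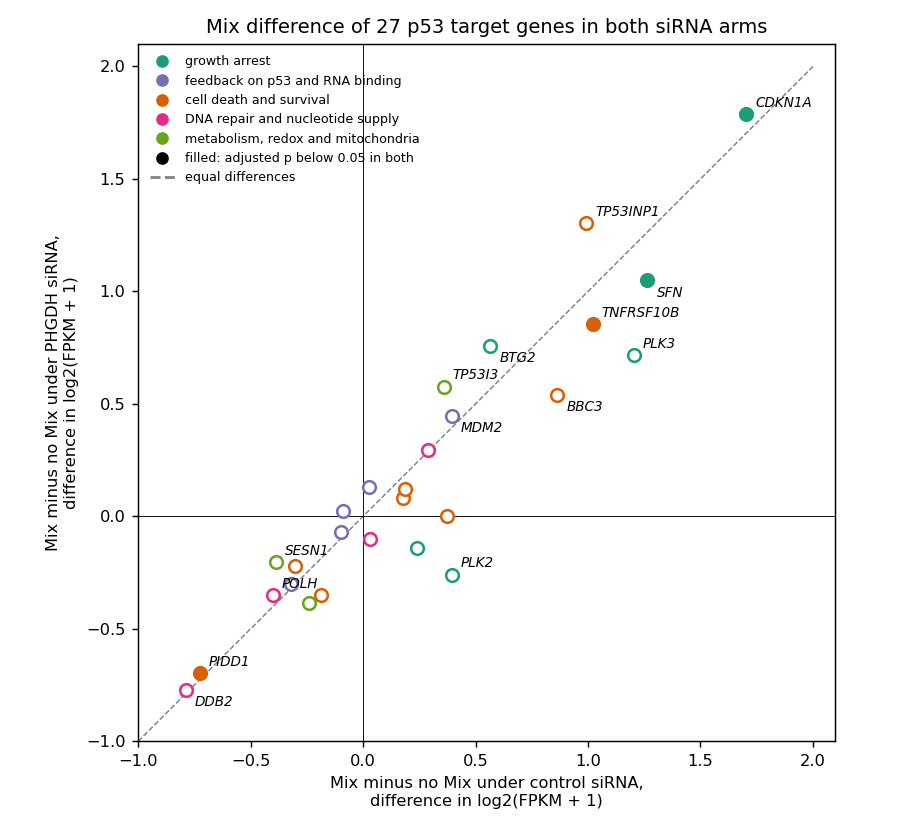
Difference in log2(FPKM + 1) with Mix under PHGDH siRNA (vertical axis) against that under control siRNA (horizontal axis) for the 27 tested p53 target genes, coloured by role. CDKN1A lies at the top right, PIDD1 and DDB2 at the bottom left, and PLK2 below the line of equal differences.

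The direction of the Mix difference was shared by 23 of 27 genes between the arms (85.2%), beside 80.9% of all genes tested, and these comparisons share no library. Whether the Mix difference itself depended on the siRNA was tested by the interaction, the Mix difference in the PHGDH arm minus that in the control arm. It called 0 of 27 members and 0 of all genes tested by limma, and 0 members by voom on recovered reads. At an unadjusted p under 0.05, 1 member stood out, beside 1.72% of all genes. That gene was PLK2, a polo-like kinase of the stress response, with an interaction of -0.65 (adjusted p = 1). PLK2 stood at 28.7, 16.1 and 25.5 FPKM in PHGDH-siRNA+Mix and 31.4, 26.2 and 25.2 in PHGDH-siRNA, and at 22.8, 23.3 and 21.4 in Control-siRNA+Mix and 17.0, 16.9 and 16.7 in Control-siRNA. The next lowest p-values belonged to BAX (-0.37) and PLK3 (-0.49). For CDKN1A the interaction was 0.09 with a 95% interval from -0.78 to 0.95, which leaves room for sizeable differences between the arms.

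Within the PHGDH-siRNA groups, same-numbered libraries deviated together, so the replicate number was also fitted as a block there. With that block 10 of 27 members passed with Mix, 7 higher and 3 lower, against 22.5% of all genes tested, compared with 4 without it. BTG2, PLK3, TP53I3 and TP53INP1 joined the genes that were higher, and DDB2 and POLH those that were lower. TP53INP1 had an adjusted p of 0.00104 with the block and PLK3 one of 0.00411. The interaction called 0 members with the block, where PLK2 had an adjusted p of 0.685.

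PHGDH siRNA alone called none of the 27 genes, with or without Mix. Without Mix 0.0412% of all genes passed, and with Mix 0.0206%, so few calls were made anywhere. Voom on recovered reads also called 0 members in each, and 0.0412% and 0.0343% of all genes. At an unadjusted p under 0.05, 3 members stood out without Mix, beside 6.41% of all genes, and 1 with Mix, beside 5.72%. Differences above 0 numbered 19 of 27 without Mix (70.4%), beside 51.3% of all genes, and 22 of 27 with Mix (81.5%), beside 49.3%.

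Without Mix the 3 genes were PLK2, TNFRSF10B and SFN, whose PHGDH-siRNA libraries were all above the Control-siRNA libraries, as given above. They are 11.1% of the members, beside 4.89% of all genes with every PHGDH-siRNA library higher. PLK2 was 1.64-fold higher (log2 0.67 ± 0.18 SE, adjusted p = 0.37), TNFRSF10B 1.55-fold (0.59 ± 0.19, adjusted p = 0.506) and SFN 1.45-fold (0.57 ± 0.23, adjusted p = 0.715). Left without replicate 2 of both PHGDH-siRNA groups, PLK2 passed (0.71, adjusted p = 0.0324), as did 0.696% of all genes, while TNFRSF10B did not (0.74, adjusted p = 0.0538). For MDM2 the difference was -0.01 with a 95% interval from -0.40 to 0.39, and for PIDD1 -0.01 with an interval from -0.35 to 0.33.

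With Mix, TNFRSF10B had the lowest p-value of the members, at 1.38-fold (log2 0.43 ± 0.19 SE, adjusted p = 0.854). CDKN1A was 1.45-fold higher on average (0.47 ± 0.28, adjusted p = 0.979), but its PHGDH-siRNA+Mix replicate 2, at 167 FPKM, lay below all Control-siRNA+Mix libraries. FDXR stood at 10.0, 11.0 and 7.75 FPKM in PHGDH-siRNA+Mix, against 13.3, 12.7 and 10.9 in Control-siRNA+Mix (-0.34, adjusted p = 0.979). These groups overlapped, as did those without Mix, at 12.1, 15.8 and 10.7 FPKM in PHGDH-siRNA, against 10.5, 17.8 and 16.7 in Control-siRNA. The PHGDH-siRNA+Mix libraries were all above the Control-siRNA+Mix libraries for SFN, TNFRSF10B and TP53INP1, 11.1% of the members beside 7.01% of all genes. Without replicate 2 of both PHGDH-siRNA groups 0 members and 0.379% of all genes passed in this comparison.

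**Figure D4:**
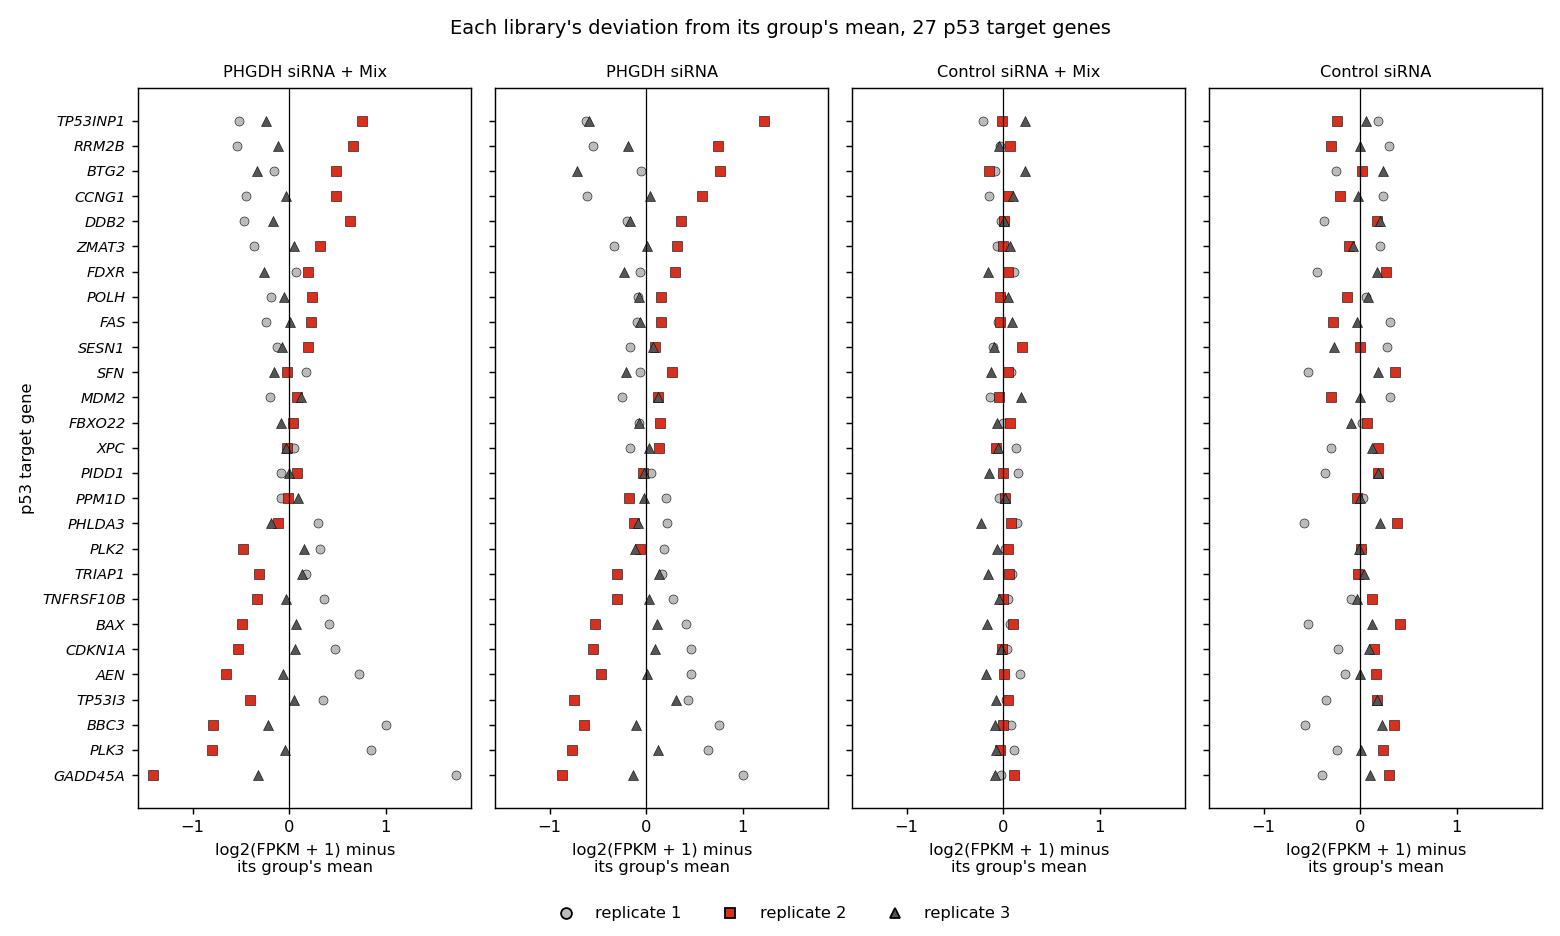
Deviation of each library from its group's mean on the log2(FPKM + 1) scale for the 27 tested p53 target genes, in the 4 groups. In both PHGDH-siRNA groups replicate 2 is high for TP53INP1 and RRM2B and low for GADD45A and PLK3, whereas Control-siRNA+Mix libraries lie close together for all 27.

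In both PHGDH-siRNA groups the members' levels differed between replicates in a recurring way. Replicate 2 lay over 0.5 from the other 2 libraries, the same way in both PHGDH-siRNA groups, for 12 of 27 members (44.4%), beside 22.2% of all genes. It was higher for BTG2, CCNG1, DDB2, RRM2B and TP53INP1 and lower for AEN, BAX, BBC3, CDKN1A, GADD45A, PLK3 and TP53I3. Replicate 1 stood off for 11 of 27 members (40.7%, beside 12.1%), higher for those same 7 genes, and replicate 3 for 0. The 3 deviations of a gene in a group sum to 0, so the counts for replicates 1 and 2 are not separate observations. In the control groups no replicate stood off this way for any member, beside 0.521% to 0.645% of all genes. A replicate had to deviate in both groups, and the Control-siRNA+Mix libraries lay close together. In Control-siRNA alone, replicate 1 was the lowest of 3 for SFN, BAX and PHLDA3 and the highest for MDM2, RRM2B and SESN1. GADD45A stood at 117, 12.4 and 27.4 FPKM in PHGDH-siRNA+Mix and 77.8, 20.5 and 34.6 in PHGDH-siRNA, against 23.4, 25.7 and 22.3 in Control-siRNA+Mix and 14.9, 24.7 and 21.5 in Control-siRNA. The median SD of the members on the log2 scale was 0.348 in PHGDH-siRNA+Mix, 0.293 in PHGDH-siRNA, 0.101 in Control-siRNA+Mix and 0.267 in Control-siRNA, beside 0.251, 0.239, 0.096 and 0.186 for all genes tested. What set these libraries apart was not tested.

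**Figure D5:**
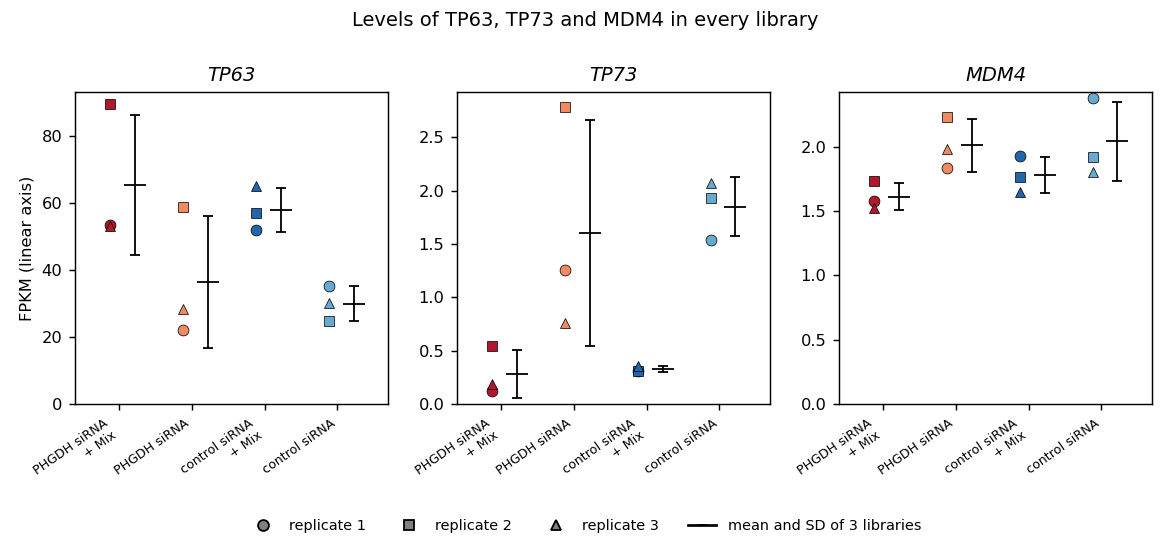
FPKM on linear axes of TP63, TP73 and MDM4 in each of the 12 libraries, with mean and SD of 3 libraries. TP73 is lower in every Mix library than in every library without Mix of the same siRNA, and TP63 is spread widely in both PHGDH-siRNA groups through replicate 2.

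Among regulators and relatives of p53, TP73 and CDKN2A fell with Mix in both arms. CDKN2A encodes the tumour suppressors p16 and ARF, of which ARF inhibits MDM2. TP73 stood at 0.122, 0.543 and 0.184 FPKM in PHGDH-siRNA+Mix, against 1.26, 2.79 and 0.761 in PHGDH-siRNA (log2 -0.96, adjusted p = 0.0304), and 0.314, 0.306 and 0.357 in Control-siRNA+Mix, against 1.54, 1.93 and 2.07 in Control-siRNA (-1.10, adjusted p = 0.0153). The groups of each pair did not overlap, and 9.36% of the exon bases of TP73 are shared with TP73-AS1 on the opposite strand. TP73 reached the filter of 0.5 FPKM only in the groups without Mix, so it entered the test through the groups where it is high. CDKN2A differed by -0.85 under PHGDH siRNA and -0.77 under control siRNA (adjusted p = 0.0229 and 0.0327). Leaving out single libraries ended the calls of both genes in each arm.

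TP63 did not pass with all libraries in the fit. Its values were 53.4, 89.5 and 53 FPKM in PHGDH-siRNA+Mix, against 22.1, 58.9 and 28.3 in PHGDH-siRNA, and 52, 56.9 and 65 in Control-siRNA+Mix, against 35.1, 24.7 and 30.2 in Control-siRNA. The control groups did not overlap (log2 0.94, adjusted p = 0.103), and replicate 2 made the PHGDH-siRNA groups overlap (0.90, adjusted p = 0.118). TP63 passed as higher with Mix in both arms without replicate 2 of both PHGDH-siRNA groups (adjusted p = 0.00455 under PHGDH siRNA and 0.00222 under control siRNA) and without PHGDH-siRNA replicate 2 alone (0.00735 and 0.0198). It also passed in the PHGDH arm with the replicate block (0.0035) and in the control arm when those groups were fitted alone (0.00697). MDM4, which inhibits p53 together with MDM2, differed by -0.21 and -0.12 with Mix (adjusted p = 0.331 and 0.614).

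Among 57 tested genes of a second list of p53 targets, 7 rose and 1 fell with Mix under PHGDH siRNA (14%, beside 8.86% of all genes), and 7 rose and 2 fell under control siRNA (15.8%, beside 9.54%). TGFA, a ligand of the epidermal growth factor receptor, stood at 71.6, 54 and 54.9 FPKM in PHGDH-siRNA+Mix, against 27.7, 21.1 and 25.9 in PHGDH-siRNA (log2 1.24, adjusted p = 0.00034), and 41.1, 39.6 and 43.6 in Control-siRNA+Mix, against 16.2, 13.8 and 14.6 in Control-siRNA (1.42, adjusted p = 9.72e-05). DRAM1, a lysosomal protein of autophagy, rose by 0.97 and 1.04, and the cytokine gene LIF by 1.36 and 1.25. PMAIP1, which encodes the BCL-2 antagonist NOXA, rose by 0.76 and 0.96 (adjusted p = 0.0278 and 0.00807). PRDM1, a transcriptional repressor, rose by 1.04 and 0.76 (adjusted p = 0.00685 and 0.0309). It reached the filter of 0.5 FPKM only in the Mix groups, with means of 1.5 and 0.837 FPKM, against 0.183 and 0.0859 without Mix. Its calls, which are in the counts above, thus rest on the groups where it is high. A gene that fell under control siRNA likewise reached the filter only without Mix. Leaving out single libraries gave 4 to 12 calls in the PHGDH arm, beside 665 to 1644 of all genes. In the control arm it gave 4 to 11, beside 658 to 1780 of all genes. Neither PHGDH siRNA comparison nor the interaction called any with all libraries. With the replicate block 20 passed in the PHGDH arm, beside 22.5% of all genes. Without replicate 2 of both PHGDH-siRNA groups 13 passed in the PHGDH arm, beside 15.1% of all genes, and 15 in the control arm, beside 20.8%.

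Cell cycle genes that p53 is known to hold down through p21 and the DREAM repressor complex fell with Mix. Of 19 tested, 13 fell under PHGDH siRNA (68.4%) and 10 under control siRNA (52.6%), beside 3.64% and 3.92% of all genes, and none rose. The median log2 differences were -0.92 and -0.57. FOXM1, the transcription factor of mitotic genes, stood at 17.7, 22.9 and 18.2 FPKM in PHGDH-siRNA+Mix, against 49.4, 33.7 and 40.5 in PHGDH-siRNA (-1.03, adjusted p = 0.00133), and 26, 26.8 and 25.8 in Control-siRNA+Mix, against 46.3, 46.2 and 46.6 in Control-siRNA (-0.80, adjusted p = 0.00541). The replication helicase gene MCM5 fell by 1.11 under PHGDH siRNA and by 0.79 under control siRNA. Left without 1 library, 8 to 16 passed in the PHGDH arm, the lowest without PHGDH-siRNA replicate 3, beside 665 to 1644 of all genes. When its groups were fitted alone 0 passed, beside 1.81% of all genes. In the control arm 2 to 11 passed, beside 658 to 1780 of all genes. The count was 2 in each case where Control-siRNA replicate 2 or 3 or any Control-siRNA+Mix library was left out. In those fits 658 to 903 of all genes passed, against 1391 with all libraries. Without replicate 2 of both PHGDH-siRNA groups 17 fell in the PHGDH arm and 13 in the control arm, where 15.1% and 20.8% of all genes passed in either direction.

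Under PHGDH siRNA, 18 of these 19 cell cycle genes were below control siRNA with Mix, with a median of -0.32, and 8 did not overlap, all lower (42.1%, beside 7.33% of all genes). None passed the test (lowest adjusted p = 0.636), and 7 had an unadjusted p under 0.05. Without Mix the median was -0.04 and none passed. With Mix, CDKN1A thus passed as higher in both arms, and 13 and 10 of these 19 genes as lower. The part of either in the other was not tested.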

How the data were processed

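The authors deposited FPKM for 12 HaCaT libraries, a unit read from the values. Tools listed in the submitters' processing notes are HISAT2 2.0.5, CASAVA and featureCounts 1.5.0-p3, with hg38 as the build. Multiplied by gene length, FPKM came in whole steps per library (100% of values up to 200 reads within 0.05 reads), from which reads were recovered. Gene positions came from GENCODE 29, which holds all 58735 identifiers.

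Tested were the 14577 genes whose mean reached 0.5 FPKM in any group. A limma 3.58.1 model (R 4.3.3; trend, robust) of log2(FPKM + 1) took group means over all libraries at once, with two-sided p-values adjusted by Benjamini-Hochberg at 0.05. Differences on this scale understate those of low genes. The fit was tested on simulated data drawn independently for each library. Such data lack the shared deviations of same-numbered PHGDH-siRNA libraries, so that check does not cover them. The members and lists were chosen with earlier results of these data known. By rule, values in every library are given for members past the threshold, the 3 with the lowest p in each comparison, CDKN1A, MDM2 and SFN. Other lists name at most 4 passing members per list and comparison, plus TP63, TP73 and MDM4. One further gene and one marker are not reported here. Further members shown by library were chosen after their values were seen.

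Same-numbered libraries were checked for pairing by correlating their deviations from the group means over genes. Within the PHGDH-siRNA groups these were 0.69, 0.775 and 0.459, so a replicate block there is given beside the Mix comparison. Alternatives were another pseudocount, no filter, other scalings, voom on recovered reads, fits of the compared groups alone, a replicate block and leaving libraries out.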

Additional observations from a re-analysis of the deposited data

How the results depend on the processing

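No result changed direction past the threshold under any alternative run. Of 202 alternatives for the counts of members and their medians, 183 gave a count within 1.5 times that reported or a median within 1 SD of the library medians, combined over the groups compared, and 19 did not. For the members called with Mix under PHGDH siRNA (4), no filter on low values gave 2, the compared groups alone 0, leaving out replicate 2 of both PHGDH-siRNA groups 8, the replicate block within those groups 10, and leaving out single libraries 1 to 6. Over all genes these settings called 761, 254, 2190, 3284 and 665 to 1644 in that order, beside 1291 in the reported fit. The count of members was 1 without PHGDH-siRNA replicate 3, where 665 of all genes passed. It was 2 without PHGDH-siRNA replicate 1 or PHGDH-siRNA+Mix replicate 1 or 3 (761, 906 and 744 of all genes). Under control siRNA (4), the compared groups alone gave 12 (beside 19.4% of all genes). Leaving out replicate 2 of both PHGDH-siRNA groups gave 11 (beside 20.8%). Single libraries left out gave 3 to 8, the highest without PHGDH-siRNA+Mix replicate 2, beside 658 to 1780 of all genes. For PHGDH siRNA without Mix (0), leaving out both replicate 2 libraries gave 1, beside 0.696% of all genes. The median difference under control siRNA (0.18) became 0.07 with no filter and 0.11 to 0.29 with single libraries left out. That for PHGDH siRNA without Mix (0.27) became 0.07 with no filter and 0.10 to 0.28. That for PHGDH siRNA with Mix (0.12) became 0.16 with a pseudocount of 0.1 and 0.16 with voom, and that with Mix under PHGDH siRNA (0.02) became -0.07 with voom. The cause was not tested.

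Over all groups 5 of 18 same-numbered pairs correlated above 0.1 (-0.387 to 0.775) and 7 of 12 libraries correlated best with their own number. A replicate block over all groups gave 5 members with Mix in each arm, DDB2 being added, and 0 elsewhere. Of all genes it called 1188 with Mix under PHGDH siRNA and 1293 under control siRNA. Rescaling by median ratios is no check, since the factors were 1.013 in every library. It could act only through the pseudocount, and it changed no member's call. The 202 alternatives above include this rescaling. Genes with few reads are also limited by counting error, to which unmarked PCR duplicates add.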
